A study of Homo sapiens with 6 samples.

Results

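Ribosome biogenesis takes place largely in the nucleolus, where RNA polymerase I copies ribosomal DNA into a long precursor RNA. Small nucleolar ribonucleoproteins (snoRNPs) modify that precursor, and the small subunit processome and the large subunit assembly factors fold it, cut it and load ribosomal proteins onto it. Growing cells need many ribosomes and usually keep these genes high, whereas most endothelium in a resting vessel divides rarely. The genes described here are 60 nucleolar ribosome biogenesis factors, listed by name for their known function. The list was chosen with earlier results of these data known, so it is not independent of them. They cover the snoRNP core, multifunctional nucleolar proteins, the small subunit processome, late small subunit maturation, large subunit assembly and RNA polymerase I. All 60 were found among the 18317 gene names of the files, and all 60 passed the filter on low values, which kept the 12712 names that reached 1 FPKM in 3 or more libraries. FPKM, a level scaled for gene length and library size, is the inferred unit of the deposited values.

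The cells were HUVECs, primary endothelium from the vein of the human umbilical cord. The first group (3 libraries) overexpressed the microRNA miR-483 and the other (3 libraries) overexpressed 8OH-G miR-483, its form with oxidised guanine. Both groups received lipid transfection and gave total RNA on day 2, so transfection is shared by all libraries. The labels do not give the arm of miR-483, the oxidised position, the number of donors or whether replicates were separate cultures, so the spread behind each p-value is that of these libraries and may be technical. A scramble control named in the protocol was not analysed here, and every difference below can come from either form of the microRNA. Totals ran from 1396537 to 1687283 FPKM per library, of which mitochondrial rows held 71.3% to 76.6%, and read depth is unknown. Of 10 endothelial markers, all had a row, 6 fell and 0 rose, beside 20.5% of all genes tested called lower and 34.9% called higher. KDR, ERG, ESAM and CLDN5 did not pass in either direction. Summed over all 10, the level was 1933 to 1970 FPKM in miR-483 libraries and 1098 to 1317 FPKM in 8OH-G miR-483 libraries. Of 9 leukocyte markers, 3 had a row and 2 of them fell (summed level 52.5 to 56.7 and 45.2 to 49.6 FPKM). Among 10 mural and fibroblast markers, 6 had a row and 1 of 3 tested fell, with sums of 620 to 842 and 826 to 1018 FPKM that were mostly RGS5. Of 7 epithelial markers, 3 had a row and KRT18 rose, with sums of 71.0 to 81.6 and 127 to 144 FPKM, and 0 of 5 erythroid markers had a row. The part of these marker differences in the results below was not tested. Fewer cells of a type and less RNA per cell cannot be told apart in bulk RNA.

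Nearly the whole set was higher in the cells given 8OH-G miR-483. Of the 60 genes, 59 rose, 0 fell and 1, the RNA polymerase I transcription factor gene UBTF, did not pass (limma on log2(FPKM + 1), adjusted p of 0.05 over all 12712 genes). Among all genes tested, 34.9% were called higher and 20.5% lower (55.4% in either direction). The summed level of the 60 genes was 1121, 1239 and 1195 FPKM in the miR-483 libraries and 2220, 2422 and 2469 FPKM in the 8OH-G miR-483 libraries. The groups were thus well apart, at means of 1185 ± 59.7 and 2370.5 ± 132 FPKM (SD, n = 3 libraries per group throughout), and without NPM1 and NCL, the 2 most abundant members, the sums were 809 ± 37.9 and 1577 ± 62.0 FPKM. As a share of all nuclear-encoded FPKM, the 60 genes made up 0.305% to 0.327% in miR-483 libraries and 0.554% to 0.625% in 8OH-G miR-483 libraries.

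**Figure D1:**
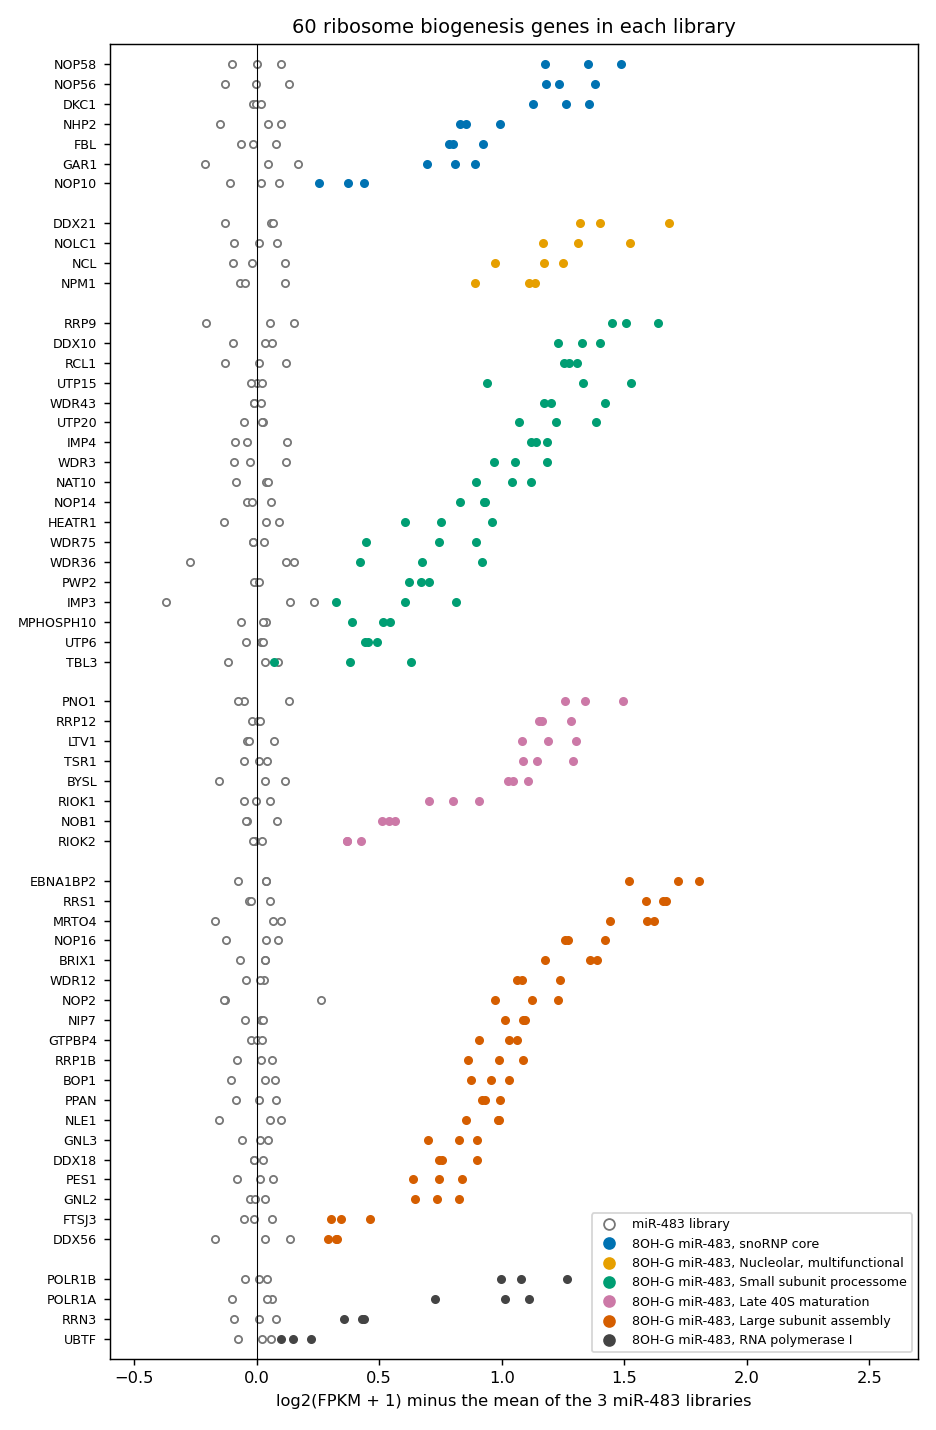
Each row is 1 of the 60 genes and each point 1 library, placed by its log2(FPKM + 1) minus the mean of the 3 miR-483 libraries; open points are miR-483 and filled points 8OH-G miR-483, coloured by role. All filled points lie to the right of the open ones except in TBL3, where 1 8OH-G miR-483 library falls among them.

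The fitted log2 fold change had a median of 1.01 over the 60 genes, with an interquartile range of 0.74 to 1.25, against a median of 0.09 over all genes tested. It ran from 0.16 (UBTF) to 1.68 (EBNA1BP2) on the log2(FPKM + 1) scale, where the added 1 makes changes of low genes look smaller. In mean FPKM, 50 of the called members were at least 1.5-fold higher, as were 18.0% of all genes tested, and 35 were at least 2-fold higher, as were 8.04% of all. All 3 values of the 8OH-G miR-483 group lay above all 3 of the miR-483 group for 59 members and for 39.5% of all genes tested. Rescaling the libraries moved the median of all genes by -0.10 (median-ratio scaling and quantile normalization alike), after which 56 and 58 members still passed as higher, with 27.2% and 27.1% of all genes. Under median-ratio scaling the higher genes made up 49.9% of all calls, against 63.0% as deposited.

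**Figure D2:**
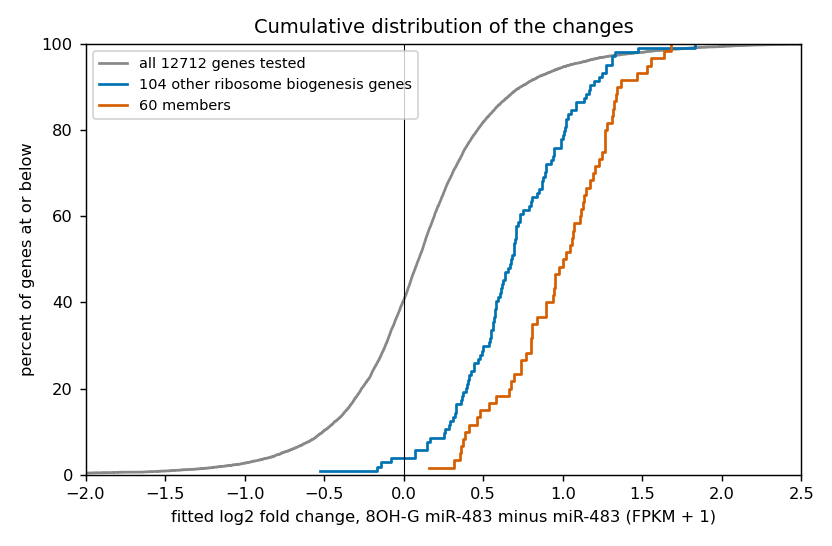
Cumulative share of genes (y axis, percent) at or below each fitted log2 fold change (x axis, 8OH-G miR-483 minus miR-483) for all genes tested, for 104 other ribosome biogenesis genes and for the 60 members. The members' curve crosses 50 percent near their median of 1.01 and that of all genes near 0.09.

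The start regions of these genes were read for the E-box CACGTG, the sequence that the growth-promoting factor MYC and several related factors are known to bind. The windows were RefSeq's (GRCh38.p14), from 250 bases before to 50 bases after an annotated start, and 52 of the 60 genes matched by symbol, with 62 windows. CACGTG reads the same on both strands, so 1 search covers both. At least 1 match lay in a window of 22 of the 52 members (42.3%), against 12.9% of the 8839 tested genes with a window. Counted by window, it was in 37.1% of 62 member windows, in 9.43% of 12999 windows of tested genes and in 7.26% of all 35116 windows in the table. Most member matches sat near the annotated start. A match that reached or lay past the annotated start was found in 18 members (34.6%) and in 1.91% of tested genes, a position that was singled out after the matches were seen. Of 25 matches, 16 began 20 or fewer bases from the start on either side. A match is only these letters in this window, and binding was not measured. The median log2 fold change was 1.08 over the 22 members with a match and 0.95 over the 30 without. The ranges, 0.35 to 1.68 and 0.16 to 1.32, overlapped widely, and the difference was not tested. MYC, which is not a member and was named outside the rule for naming genes, had 25.3, 27.1 and 26.2 FPKM with miR-483. With 8OH-G miR-483 it had 47.5, 49.8 and 51.3 FPKM, so its groups did not overlap, as for 39.5% of all genes tested in that direction. Any part of MYC in the members' changes was not tested. The following 30-base stretches, 5′ to 3′ on the gene's strand with the E-box in capitals, belong to 10 members from different roles whose match lies within 20 bases of the start. They are given as examples of the match, which most of the 52 members lack. The share of members with a match comes from the gene list and the annotation, not from the levels in these libraries. Any link between the match and the changes was not tested.
RRP9 (chr3:51941892-51941921, minus strand): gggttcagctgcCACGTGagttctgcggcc
RCL1 (chr9:4792936-4792965, plus strand): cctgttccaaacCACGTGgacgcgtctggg
WDR43 (chr2:28894658-28894687, plus strand): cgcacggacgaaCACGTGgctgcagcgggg
UTP20 (chr12:101280083-101280112, plus strand): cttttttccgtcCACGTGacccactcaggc
PNO1 (chr2:68157885-68157914, plus strand): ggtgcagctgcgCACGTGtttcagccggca
MRTO4 (chr1:19251807-19251836, plus strand): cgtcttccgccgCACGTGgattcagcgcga
GNL3 (chr3:52686026-52686055, plus strand): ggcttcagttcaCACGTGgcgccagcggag
PES1 (chr22:30591880-30591909, minus strand): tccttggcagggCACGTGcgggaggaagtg
FBL (chr19:39846356-39846385, minus strand): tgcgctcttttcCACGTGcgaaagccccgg
NOP10 (chr15:34343130-34343159, minus strand): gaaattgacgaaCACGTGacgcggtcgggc

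**Figure D3:**
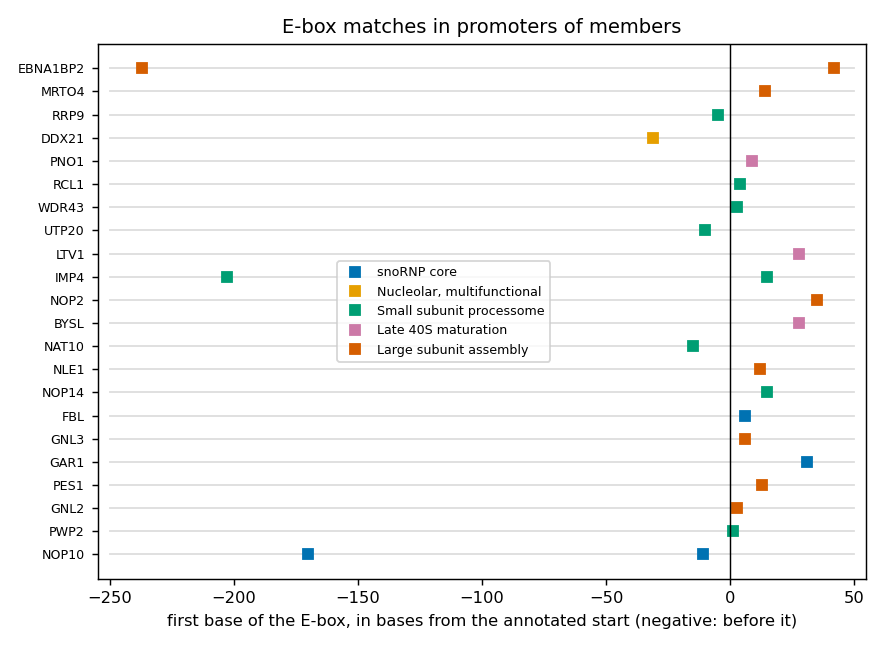
Each row is 1 of the 22 members with an E-box in a start region and each square the first base of a match, in bases from the annotated start (x axis, negative before it), coloured by role; a gene with several annotated starts has its matches on 1 row. Matches gather around 0, and 17 of 25 begin at or past the start.

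The snoRNP core all rose (7 of 7, median log2 fold change 0.89). Box C/D snoRNPs methylate ribosomal RNA, with fibrillarin (FBL) as the enzyme and NOP56 and NOP58 as scaffolds. NOP58 had 12.1, 14.0 and 13.0 FPKM with miR-483 and 30.7, 34.8 and 38.2 FPKM with 8OH-G miR-483. The groups stood far apart, a change of 1.34 log2 (SE 0.093, adjusted p = 8.81e-06, limma). NOP56 had 34.2, 37.5 and 41.2 FPKM with miR-483 and 86.4, 89.6 and 99.4 FPKM with 8OH-G miR-483, again without overlap. FBL rose less, from 49.2 ± 2.52 to 88.7 ± 4.78 FPKM, and its match near the start is among those printed above. As FPKM, the inferred unit, is a level per length, ratios between these genes are given. Deviations of single libraries still went with transcript length, as given under Other observations, and the ratios are not corrected for this. NOP56 was at 0.765 ± 0.0703 of the FBL level with miR-483 and 1.04 ± 0.102 with 8OH-G miR-483, while the NOP58 to NOP56 ratio overlapped between groups (0.347 ± 0.0288 and 0.376 ± 0.0180). These ratios, and those given for other complexes below, were picked after the values were seen and were not tested.

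Box H/ACA snoRNPs turn uridine into pseudouridine, with dyskerin (DKC1) as the enzyme and GAR1, NHP2 and NOP10 as its partners. DKC1 had 13.3, 13.4 and 13.6 FPKM with miR-483 and 30.5, 33.6 and 35.9 FPKM with 8OH-G miR-483. The 3 miR-483 values were almost equal and the groups did not overlap (1.25 log2, SE 0.0739, adjusted p = 4.15e-06, limma). NHP2 and GAR1 rose 1.87-fold and 1.79-fold in mean FPKM. NOP10, the smallest of these proteins, changed least. Its values were 81.1, 93.0 and 88.6 FPKM with miR-483 and 113, 119 and 105 FPKM with 8OH-G miR-483, which do not overlap but lie close (0.35 log2, SE 0.0799, adjusted p = 0.00532, limma). NOP10 holds 2 E-box matches. The ratio of DKC1 to NOP10 went from 0.154 ± 0.00986 to 0.299 ± 0.0396.

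The 4 multifunctional nucleolar proteins rose, with a median of 1.23 log2. Nucleophosmin (NPM1), a histone and ribosome assembly chaperone and the most abundant member, had 254, 289 and 258 FPKM with miR-483 and 496, 588 and 577 FPKM with 8OH-G miR-483. Nucleolin (NCL), which binds the precursor RNA and aids its transcription and processing, had 101, 118 and 107 against 214, 246 and 259 FPKM. In both genes the 8OH-G miR-483 library with the lowest value was replicate 1. NPM1 has processed pseudogenes close to it in sequence, and the row for NPM1P27 went from a mean of 10.1 to 21.2 FPKM, so reads could be shared between them. DDX21, an RNA helicase that links RNA polymerase I transcription to snoRNA action, had 17.9, 15.6 and 18.0 FPKM with miR-483 and 46.9, 44.3 and 57.3 FPKM with 8OH-G miR-483. NOLC1, a chaperone of snoRNPs, had 16.0, 14.1 and 15.2 against 35.1, 38.9 and 45.3 FPKM. Neither gene's groups overlapped, and DDX21, at 1.47 log2 (SE 0.105, adjusted p = 1.00e-05, limma), lay at the 98.0th percentile of all fitted changes.

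The small subunit processome is a large particle that forms on the precursor RNA as it is made and cuts out the small subunit RNA. All 18 of its members rose, with a median of 0.96 log2 and mean folds from 1.33 (TBL3) to 3.35 (RRP9). RRP9, a protein of the snoRNP that guides the early cuts, had 3.32, 4.55 and 4.17 FPKM with miR-483 and 12.6, 14.5 and 13.2 FPKM with 8OH-G miR-483. The helicase gene DDX10 had 4.40, 5.02 and 4.91 FPKM with miR-483 and 12.5, 13.5 and 14.2 FPKM with 8OH-G miR-483. RCL1, which is related to RNA cyclases, had 3.74, 3.31 and 4.12 against 10.4, 10.2 and 10.7 FPKM. All 3 genes were well separated, with changes of 1.53, 1.32 and 1.28 log2. UTP15 and UTP20, scaffold subunits, also rose, 3.05-fold and 2.93-fold, as did WDR43 (2.58-fold), NAT10, which acetylates the small subunit RNA (2.17-fold), and IMP4 (2.31-fold).

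At the other end of the processome list, TBL3 was the member whose groups overlapped. The scaffold gene TBL3 had 9.65, 11.3 and 10.8 FPKM with miR-483 and 14.1, 16.9 and 11.1 FPKM with 8OH-G miR-483, replicate 3 of the latter lying among the miR-483 values. It passed by a small margin (0.36 log2, SE 0.133, adjusted p = 0.0469, limma). The call ended after median-ratio scaling (0.125), after quantile normalization (0.18), with a fold threshold of 1.2 (0.552), with no filter on low values (0.0669) and without any of 5 single libraries (0.0605 to 0.134), the exception being 8OH-G miR-483 replicate 3. IMP3, a small subunit of the particle, had 9.56, 15.1 and 14.0 FPKM with miR-483 and 22.9, 16.1 and 19.7 FPKM with 8OH-G miR-483. It passed (0.58 log2, SE 0.176, adjusted p = 0.0234, limma) but not after median-ratio scaling (0.0509), with a fold threshold of 1.2 (0.167), or without 8OH-G miR-483 replicate 1 (0.0728) or 3 (0.0726). With replicate number as a further term in the fit, IMP3 did not pass either (adjusted p = 0.1, limma). UTP6 and MPHOSPH10 rose 1.42-fold and 1.43-fold, with no overlap between the groups.

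Late maturation factors accompany the small subunit from the nucleolus to its last cut in the cytoplasm, and all 8 rose (median 1.12 log2). PNO1, an RNA-binding protein that stays on the particle until late, had 5.04, 4.93 and 5.86 FPKM with miR-483 and 14.0, 14.8 and 16.7 FPKM with 8OH-G miR-483. RRP12, which helps export the particle, had 3.69, 3.78 and 3.81 against 9.59, 9.67 and 10.6 FPKM. The assembly factor gene LTV1 had 7.84, 8.55 and 7.90 FPKM with miR-483 and 18.2, 19.7 and 21.4 FPKM with 8OH-G miR-483. In these genes every 8OH-G miR-483 value was far above every miR-483 value, with adjusted p from 3.53e-06 (RRP12) to 6.54e-06 (PNO1) in limma. The assembly factor genes BYSL and TSR1 rose 2.20-fold and 2.42-fold. The kinase and ATPase gene RIOK2 had 5.63, 5.59 and 5.75 FPKM with miR-483 and 7.93, 7.58 and 7.58 FPKM with 8OH-G miR-483. Its groups were narrow and separate although the change was small (0.39 log2, SE 0.0634, adjusted p = 0.000986, limma), and its relative RIOK1 rose 1.89-fold. NOB1, the nuclease of the last cut, rose 1.48-fold.

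Large subunit assembly was the largest role, and all 19 genes rose (median 0.98 log2, mean folds from 1.25 to 3.45). EBNA1BP2, an early nucleolar assembly factor, had 21.0, 22.8 and 22.8 FPKM with miR-483 and 65.5, 75.3 and 79.9 FPKM with 8OH-G miR-483. That is the largest fitted change of the 60 genes (1.68 log2, SE 0.0847, adjusted p = 2.10e-06, limma), and EBNA1BP2 stood 157th of all tested genes by log2 fold change. RRS1, which brings the 5S ribonucleoprotein into the particle, had 6.07, 6.49 and 6.11 FPKM with miR-483 and 20.7, 21.8 and 22.0 FPKM with 8OH-G miR-483. RRS1 had the highest fold in mean FPKM, 3.45, and the smallest adjusted p of the set (9.10e-07, limma). MRTO4, a placeholder for a ribosomal stalk protein, had 7.38, 9.09 and 8.87 against 24.6, 27.9 and 27.4 FPKM, with no overlap.

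Within this role, PES1, BOP1 and WDR12 form the PeBoW complex, which is needed for maturation of the large subunit RNAs. PES1 rose 1.69-fold, BOP1 1.98-fold and WDR12 2.61-fold in mean FPKM. The WDR12 to PES1 ratio was 0.0965 to 0.102 with miR-483 and 0.139 to 0.167 with 8OH-G miR-483, so the ranges did not overlap. The nucleolar GTPase genes GNL2, GNL3 (nucleostemin) and GTPBP4 rose 1.71-fold, 1.77-fold and 2.10-fold. The RNA methyltransferase gene NOP2 rose 2.23-fold, and the assembly factor genes NOP16 and BRIX1 rose 2.59-fold and 2.71-fold. DDX56, a helicase, was lowest in this role, at 17.7, 22.0 and 20.5 FPKM with miR-483 and 24.7, 25.3 and 25.4 FPKM with 8OH-G miR-483. Its groups did not overlap (0.31 log2, SE 0.0848, adjusted p = 0.0127, limma), but the gene did not pass after median-ratio scaling (0.0619) or with a fold threshold of 1.2 (0.616). FTSJ3, another RNA methyltransferase gene, rose 1.31-fold. With that threshold FTSJ3 (adjusted p = 0.231, limma) did not pass either, nor did NOP10 (0.358), RIOK2 (0.135) or RRN3 (0.117). PPAN rose 2.00-fold, and it has a read-through row with P2RY11 at means of 0.851 and 0.592 FPKM.

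**Figure D4:**
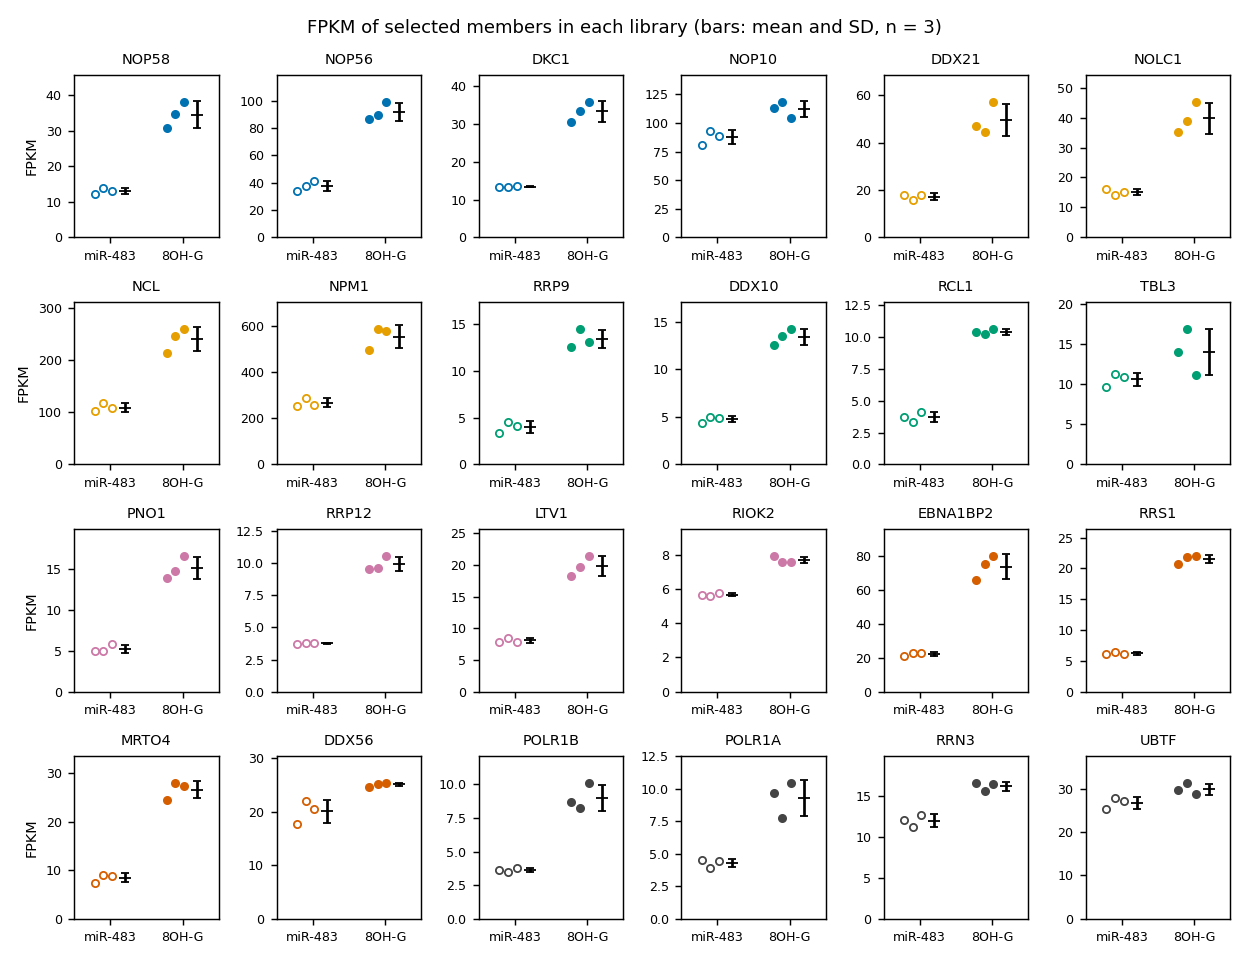
FPKM (y axes, each from 0) of 24 members, by role the 3 with the largest changes and the 1 with the smallest, in each miR-483 library (open points) and each 8OH-G miR-483 library (filled points), with the mean and SD beside them (n = 3). Of these 24 genes, TBL3 is the one whose groups overlap, and UBTF has the smallest change.

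Of the 4 RNA polymerase I genes, 3 rose and UBTF did not pass. POLR1A and POLR1B encode the 2 largest subunits of the enzyme, RRN3 the factor that makes it competent to initiate and UBTF the factor that holds ribosomal DNA open. POLR1B had 3.63, 3.46 and 3.74 FPKM with miR-483 and 8.72, 8.21 and 10.1 FPKM with 8OH-G miR-483. POLR1A had 4.52, 3.92 and 4.44 against 9.68, 7.75 and 10.4 FPKM. Both were clearly apart between groups (1.11 and 0.95 log2, adjusted p = 1.41e-05 and 0.000114, limma). The factor genes changed less. RRN3 had 12.1, 11.2 and 12.7 FPKM with miR-483 and 16.6, 15.6 and 16.5 FPKM with 8OH-G miR-483 (0.41 log2, SE 0.0706, adjusted p = 0.00132, limma). RRN3 lies on 2 rows and has pseudogenes, of which RRN3P1 was at means of 2.95 and 4.98 FPKM and RRN3P3 at 3.42 and 3.28 FPKM, so reads could be shared. UBTF had 25.3, 27.8 and 27.1 FPKM with miR-483 and 29.7, 31.3 and 28.7 FPKM with 8OH-G miR-483. The UBTF values did not overlap, but the difference of 0.16 log2 (SE 0.0675) did not pass (adjusted p = 0.0796, limma), and none of the 4 genes holds an E-box in its windows.

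The order of levels in each group was headed by NPM1, NCL and NOP10. With miR-483 these were followed by NHP2 (50.5 ± 4.57 FPKM), FBL, NOP56 (37.6 ± 3.46 FPKM) and GNL3 (36.2 ± 1.38 FPKM), of which NHP2 and FBL did not differ beyond their spread, nor did NOP56 and GNL3. With 8OH-G miR-483, NHP2 (94.5 ± 5.88 FPKM), NOP56 (91.8 ± 6.77 FPKM) and FBL could not be ordered beyond their spread, and EBNA1BP2 (73.6 ± 7.34 FPKM) came next. The lowest members were UTP20 (2.31 ± 0.0985 FPKM) and UTP15 (2.38 ± 0.0509 FPKM) with miR-483, and PWP2 (5.01 ± 0.168 FPKM) with 8OH-G miR-483. Across the 60 genes the log2 fold change had a Spearman rho of -0.25 with the miR-483 level and -0.10 with transcript length, given as descriptions over genes that share the same 6 libraries. Replicate spread was small, with a median coefficient of variation of 5.49% with miR-483 and 7.05% with 8OH-G miR-483, and was widest for UTP15 with 8OH-G miR-483 (22.8%).

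Beyond the 60 genes, 104 further ribosome biogenesis genes were listed, likewise with earlier results of these data known, and all were tested. Of these, 92 rose and 1 fell, 11 did not pass, and the median was 0.68 log2, beside the 34.9% of all genes called higher. Among 31 other processome genes 29 rose, with ESF1 going from 3.58 ± 0.109 to 10.4 ± 0.950 FPKM and NOL11 rising 2.35-fold. Of 34 other large subunit assembly and export genes, 32 rose, among them PAK1IP1 (6.63 ± 0.0761 to 17.5 ± 1.28 FPKM) and RPF2 (2.63-fold). Of 15 rRNA processing exosome and nuclease genes, 13 rose, led in p by the exosome cofactor gene MPHOSPH6 (2.45-fold) and the exosome subunit gene EXOSC2 (2.72-fold). Of 9 snoRNP assembly genes, 7 rose, among them NAF1, which escorts new H/ACA particles (2.31-fold), and NUFIP1 (2.26-fold).

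Of the 15 other RNA polymerase I genes, 11 were higher, 1 was lower and 3 did not pass. TCOF1, the treacle scaffold of ribosomal DNA transcription, rose from 7.54 ± 0.168 to 19.3 ± 1.37 FPKM and MYBBP1A, a nucleolar protein, from 11.6 ± 0.502 to 24.0 ± 0.936 FPKM. CD3EAP, an RNA polymerase I subunit gene picked after its values were seen, had 0.850 to 1.24 FPKM with miR-483 and 5.16 to 7.17 FPKM with 8OH-G miR-483. It overlaps ERCC1 on the opposite strand, and strand use in counting is not given in the sources used here. MAF1 was the gene that fell. It is best known as a repressor of RNA polymerase III and went from 77.0 ± 3.27 FPKM with miR-483 to 53.2 ± 3.61 FPKM with 8OH-G miR-483. Its groups did not overlap (-0.53 log2, SE 0.0729, adjusted p = 0.000379, limma).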

How the data were processed

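Total RNA of 6 libraries was measured. Per the submitters' processing notes, cutadapt, STAR, HTSeq, DESeq2 and hg19 were used, without versions, parameters or the handling of strand and multi-mapped reads. The deposited values were taken as FPKM made by the authors, inferred because their totals exceed what TPM or CPM allow. Whole reads could not be recovered, so depth is unknown: at the best depth ratio tried, 23.3% of 2941 low genes matched whole reads (tolerance 0.02 log2), and at the median ratio 20.5%. For the 744 names on several rows (FBL and RRN3 among the members) the highest value per library was taken, and 24 rows with names turned into dates were left out. In miR-483 replicate 1, FBL and RRN3 each had 1 row at 0. In every other library their 2 rows were equal. Values were fitted as log2(FPKM + 1) with limma (version 3.58.1, R 4.3.3), with trend and robust options and group as the only term, and adjusted by Benjamini-Hochberg at 0.05. The fit was tried on simulated data with independent noise and far fewer changed genes than were called here, so that trial does not cover the conditions of these data. Members and lists were chosen with earlier results of these data known. By rule, every library's value is given, per role, for the 3 members with the largest changes, the 1 with the smallest and any not called. Of other biogenesis genes, the 2 with the smallest p per list and those lower are named, with means or folds. Start regions, from RefSeq (GRCh38.p14), were matched by symbol; no coordinate of the files' build was used. Transcript lengths came from GENCODE 29. Alternatives were another pseudocount, other filters, median-ratio and quantile scaling, repeated names left out, a replicate block, a fold threshold and each library left out.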

Additional observations from a re-analysis of the deposited data

How the results depend on the processing

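Of the 60 members, 53 kept their call and direction under every alternative that tested them, and in 0 of the alternatives did a member change sign. The members called higher numbered 59 with a pseudocount of 0.1, 58 of those reaching 5 FPKM in 3 libraries, 57 with repeated names left out, 52 with a fold threshold of 1.2 (with 2257 higher and 1179 lower among all genes) and 57 to 58 with each library left out. The 7 members lost at that threshold were DDX56, FTSJ3, IMP3, NOP10, RIOK2, RRN3 and TBL3. The members' median log2 fold change was 0.91 after median-ratio scaling, 0.89 after quantile normalization and 1.09 with a pseudocount of 0.1. Of the other biogenesis genes, 3 were lower after either scaling and 1 to 2 with each library left out (2 without 8OH-G miR-483 replicate 1). The labels do not say whether equal replicate numbers pair the libraries. Deviations of same-numbered libraries correlated at 0.02, 0.33 and 0.01 over all genes tested, and miR-483 replicates 1 and 3 correlated better with another number. Deviations from a mean of 3 libraries are tied to each other, so these correlations cannot settle pairing. Most of the 15 shortest members were lowest in replicate 1 of both groups (13 with miR-483 and 12 with 8OH-G miR-483). With the replicate block, 58 members were higher and 0 lower, and IMP3 did not pass (adjusted p = 0.1, limma). Among all genes tested, 4798 were higher and 2796 lower with the block, against 4433 and 2606 without it. Unknown depth limits the precision of low members such as UTP15 and UTP20 to the spread of 3 libraries.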

Other observations

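Some subunits of the other nuclear RNA polymerases, not the whole enzymes, were listed for comparison, beside the 34.9% of all genes tested that were called higher. Of 9 RNA polymerase III subunit genes, 8 rose (median 0.62 log2), with POLR3G going from 3.27 ± 0.276 to 11.2 ± 1.08 FPKM and POLR3K from 4.50 ± 0.843 to 9.46 ± 0.482 FPKM. Of 6 RNA polymerase II subunit genes, 3 rose (median 0.27 log2), a share not far from that of all genes, and POLR2A, its largest subunit, was at 47.2 ± 4.83 and 43.8 ± 3.37 FPKM. These genes and the differences between the enzymes were not tested as groups, and POLR3G, POLR3K and POLR2A were picked after their values were seen.

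Members were also ordered by transcript length within each group of libraries. Of the 15 members with the shortest annotated transcripts, 13 were lowest in replicate 1 among the miR-483 libraries and 12 were lowest in replicate 1 among the 8OH-G miR-483 libraries. Of the 15 longest, 7 were lowest in miR-483 replicate 1, 7 in replicate 2 and 1 in replicate 3, while 4, 8 and 3 were lowest in 8OH-G miR-483 replicates 1, 2 and 3. The deviation from the group mean had a Spearman rho with transcript length over the 60 members of 0.48, -0.49 and 0.04 in miR-483 replicates 1, 2 and 3, and of 0.24, -0.46 and 0.40 in 8OH-G miR-483 replicates 1, 2 and 3. These are descriptions over genes that share libraries.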
